A study of Homo sapiens with 4 samples.

Results

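The enteric neurons of human enteric ganglioids that carry the cell cycle label S were compared with those that carry the label G1. Members were chosen from the deposited annotation of each nucleus, by the class enteric neuron and the phase S or G1, and counts were summed per sample and phase. There were 2021 neurons labelled S and 3789 labelled G1 among 6557 annotated neurons, the other 747 being labelled G2M, out of 14812 annotated nuclei and 25306 deposited ones. By sample, 811 and 468 S neurons came from control 1 and 2, and 519 and 223 from PP121 1 and 2, against 1225, 640, 1314 and 610 G1 neurons in the same order, which is kept for every set of 4 values that follows. Ganglioids are free-floating aggregates of neurons and their precursors, differentiated here from H9, an established human embryonic stem cell line, to the stage that the labels call Stage 1, and profiled by single-nucleus RNA sequencing. The 2 control samples received no PP121, and the 2 treated samples received PP121, a kinase inhibitor with several targets, at 2 µM from day 15 to day 20. The labels name no transgene or edited allele in any sample. Each sample was a pool of ganglioids of 1 cell line. The labels number the differentiation replicates 1 and 2 in both groups, and whether same-numbered samples come from 1 differentiation is not given in the sources used here, so part of the spread between samples may be technical. The deposited annotation dates replicate 1 of both groups to day 42 and replicate 2 to day 38. The study describes its nuclei by another day, common to all samples, and whether the annotated days are those of collection is not known.

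Background helps to read the label. A cell copies its DNA in S phase and divides after G2, and a postmitotic neuron has left this cycle and normally does neither. Enteric neuroblasts are the intermediate: descended from neural crest progenitors, they express proneural factors and early neuronal genes, and the youngest of them still divide. A phase label of the kind used here is not a measurement of DNA synthesis. It compares the mean expression of 43 S genes, and of 54 G2M genes, with that of control genes of similar expression, calls G1 where both differences are negative, and otherwise takes the larger. The question was whether the S label among neurons marked neuroblasts, replicating cells or a low cell cycle signal.

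The class label was checked first. The summed level of 13 neuronal markers, among them DCX and ELAVL4, ranged from 7786 to 10169 CPM (counts scaled to the total of a sum) over the 4 samples in S neurons and from 8325 to 11204 CPM in G1 neurons, against 1284 to 1682 CPM in progenitors labelled S. Markers of progenitors and glia (13 genes) stood at 467 to 611 CPM in S neurons, 421 to 517 CPM in G1 neurons and 1139 to 1811 CPM in S progenitors. None of the listed markers of any class was at 0 in every S sum. Mesenchymal markers stood at 158 to 237 CPM in S and 149 to 215 CPM in G1 neurons, and epithelial ones at 7.42 to 9.74 and 8.03 to 10.7 CPM. The 9 neuroblast markers stood at 125 to 309 CPM in S and 144 to 241 CPM in G1 neurons. The 7 cycling markers stood at 36.7 to 188 CPM in S neurons, 23.3 to 34.2 CPM in G1 neurons and 182 to 388 CPM in S progenitors. Of these MKI67, TOP2A and CENPF are scored G2M genes. S neurons thus carried the neuronal markers at several times the level of progenitors. Cell barcodes occurring in more than 1 sample numbered 20 among annotated nuclei and 9 among neurons.

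The scores that set the label lay close to its threshold in most neurons. As a description of what chose the members, the median S score was 0.0352, 0.0336, 0.0298 and 0.0336 in S neurons and −0.0390, −0.0396, −0.0482 and −0.0479 in G1 neurons. The median S neuron held a UMI (1 counted molecule) of 7 S genes and the median G1 neuron of 4, in every sample. In UMIs the medians were 11, 12, 11 and 11 of all S genes together in S neurons and 5, 6, 6 and 6 in G1 neurons. A G1 neuron without any S gene UMI was rare, with 30, 19, 32 and 19 such nuclei. Just inside the threshold, the 329 S neurons with a score up to 0.01 held a mean of 11.2 S gene UMIs, and just outside it the 392 G1 neurons with a score from −0.01 held 9.82. In control replicate 2 the order was the reverse, with 10.7 in S and 11.1 in G1 neurons. These nuclei were picked by the score, so their closeness follows from the choice. Over all nuclei of each label, the medians above differed by a few UMIs per nucleus.

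Of the S neurons, 1333 (66.0%) scored up to 0.05, 501 (24.8%) from 0.05 to 0.1, 154 (7.62%) from 0.1 to 0.2 and 33 (1.63%) above 0.2. Progenitors labelled S had the same lower bound but a longer tail, with 304 of 2461 (12.4%) above 0.2. These progenitors, classes 1 and 2 of the annotation together, are the dividing precursors of the culture and served as the comparison class. The 33 neurons above 0.2 came from all samples, with 5, 5, 9 and 14 nuclei.

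**Figure D1:**
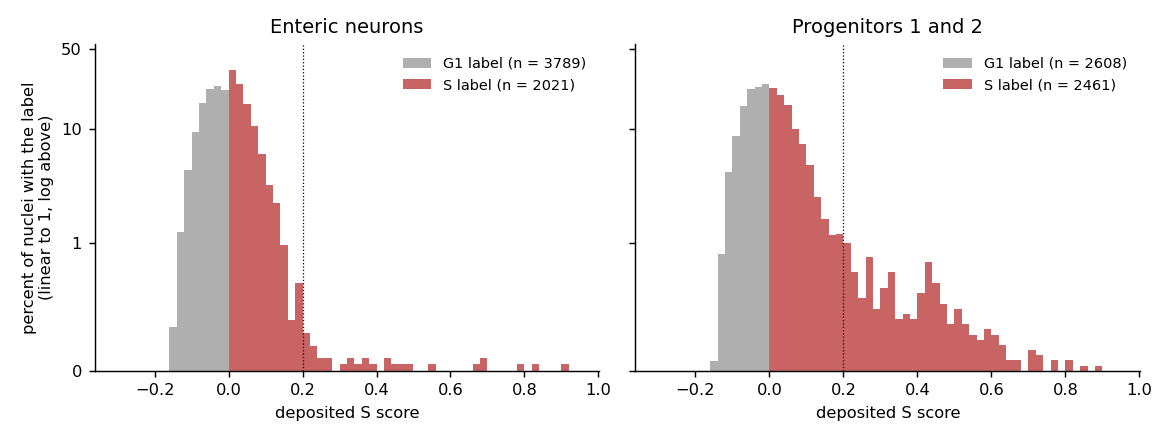
Distribution of the deposited S score in nuclei labelled G1 (grey) and S (red), as the percent of nuclei with that label per bin of 0.02, on an axis that is linear to 1 and logarithmic above. Left are enteric neurons and right progenitors 1 and 2. The dotted line marks 0.2, above which lay 33 S neurons and 304 S progenitors.

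The S genes that chose the label rose in all their functional groups, which is a description and was not tested. Summed over the detected S genes, the level was 1558, 1536, 1656 and 1967 CPM in S and 791, 788, 777 and 745 CPM in G1 neurons, a ratio of 2.17, against 3.00 in progenitors. The ratio was 3.19 for helicase and licensing factors (the MCM proteins and their loaders, which open the origins), 2.92 for nucleotide supply (RRM1, RRM2 and TYMS), 2.27 for DNA repair, 2.14 for chromatin and histone genes and 1.97 for polymerases, the clamp and the fork. POLA1, the catalytic subunit of the polymerase that primes synthesis, had 399, 413, 355 and 337 CPM in S and 222, 247, 190 and 187 CPM in G1 neurons. PCNA, the sliding clamp, had 15.6, 8.61, 11.8 and 11.7 CPM against 4.69, 5.24, 6.40 and 5.76 CPM. POLA1 and other S genes of high level were thus plentiful in G1 neurons too. At the other end RRM2, the inducible subunit of ribonucleotide reductase, had 2.78, 5.17, 16.1 and 54.6 CPM in S and at most 1.05 CPM in G1 neurons.

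A readout of the S genes that the label did not use was obtained by scoring the nuclei again from the odd-numbered S genes alone and reading the even-numbered ones. In neurons, 7 of the 19 held-out genes tested rose in edgeR's quasi-likelihood test (adjusted p under 0.05), where 1.38% of all genes were called higher, and 18 had a fold change above 0. The median log2 fold change was 0.32, and the 7 were DTL (2.19), RRM2 (3.04), MCM4 (0.96), MCM6 (0.77), CLSPN (0.77), HELLS (0.37) and NASP (0.25). In progenitors 17 of 21 rose, with a median of 1.15 and a background of 3.35%. With the roles of the odd-numbered and even-numbered genes exchanged, 3 of 19 rose in neurons (ATAD2, CDC6 and BRIP1), with a median of 0.32 and a background of 0.613%. Progenitors then showed 16 of 20, with a median of 1.00 and a background of 3.06%. The difference between classes was not tested for these labels. Without PP121 replicate 1 or 2, 4 of the held-out genes rose.

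Across the transcriptome, 494 of 17847 genes outside the scored lists were higher (2.77%) and 1004 lower (5.63%) in S than in G1 neurons, in edgeR's quasi-likelihood test over the 8 sums with the sample as a block and Benjamini-Hochberg adjustment at 0.05. The sums held 1886674 to 6465220 UMIs in S and 5729012 to 11249624 UMIs in G1 neurons, so the S sum of PP121 replicate 2 was the least precise. The median over all genes was a log2 fold change of 0.01. The total of 1498 genes called fell to 672 without control replicate 1, 610 without control replicate 2 and 870 without PP121 replicate 1. The genes of DNA replication and mitosis that the score does not use were among those that rose, and genes of neuronal maturation, synapse and transmitter among those that fell. None of the 30 neuroblast genes tested was called higher, a count near the 2.77% share of all genes. Control genes also entered the label, and the authors' draw of them was not used here, so part of the falls may be of genes the score used. As a label without control genes, added after seeing the data, neurons with at least 3 S gene UMIs at an equal depth of 2000 UMIs were set against those with 0. There 2 of 20 replication genes rose and none of 8 mitosis genes passed, where 1.01% of all genes were called higher. Of 19 neuroblast genes 4 fell and of 29 mature neuron genes 9, where 4.40% of all genes were called lower.

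Replication genes outside the scored lists rose in 12 of the 39 tested (45 were listed), against 2.77% of all genes. None of the list fell, and its median was 0.40. A fold change above 0 was seen in 38 of the list and in 9239 of all 17847 genes. The summed level of the list was 1260, 1225, 1261 and 1560 CPM in S and 1086, 1039, 1041 and 1011 CPM in G1 neurons. The groups did not overlap, and the ratio was 1.27, against 1.73 in progenitors. TOPBP1, which joins the firing of origins to the replication checkpoint, had 99.3, 87.8, 78.3 and 61.0 CPM in S and 64.5, 60.2, 62.5 and 50.4 CPM in G1 neurons (a log2 fold change of 0.42 with SE 0.08, adjusted p 0.00299 in edgeR). It was higher with the S label in each sample. WDHD1, a scaffold of the replication fork, had 38.0, 45.5, 39.5 and 44.0 against 29.6, 28.7, 23.3 and 23.4 CPM (0.60, SE 0.10, adjusted p 0.000906), without overlap. DBF4, the activator of the origin kinase CDC7, had 29.1, 26.3, 24.6 and 28.6 against 17.1, 21.1, 18.4 and 17.8 CPM (0.50, SE 0.11, adjusted p 0.00827). LIG1, the ligase of lagging strand fragments, had 31.2, 23.9, 25.5 and 21.2 against 24.1, 17.1, 18.0 and 10.3 CPM (0.48, SE 0.12, adjusted p 0.0154). These genes of moderate level were spread over many nuclei, with a TOPBP1 UMI in 39.9% of S and 33.6% of G1 neurons. Without control replicate 2 or without PP121 replicate 1, 7 replication genes rose, and DESeq2 called 3.

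The low genes of the same list behaved unevenly across samples. BRCA2, which acts in the repair of DNA breaks by recombination, had 4.95, 3.94, 10.4 and 17.0 CPM in S and 2.20, 2.71, 3.11 and 3.84 CPM in G1 neurons (1.44, SE 0.25, adjusted p 0.000861). E2F1, a transcription factor that drives S phase genes, had 2.17, 2.21, 2.17 and 13.8 against 1.05, 1.18, 0.800 and 3.32 CPM (1.42, SE 0.33, adjusted p 0.00864). Both stood highest in PP121 replicate 2. The remaining 6 that rose were FANCI (0.51), DNA2 (0.40), TICRR (0.86), E2F7 (1.22), MCM3 (1.22) and MYBL2 (1.54). MCM3, a subunit of the replicative helicase, did not rise in every sample, with 5.88, 3.69, 9.40 and 7.95 CPM in S and 3.26, 4.06, 1.69 and 2.09 CPM in G1 neurons.

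Mitosis genes outside the scored lists rose in 11 of the 29 tested (34 listed), against 2.77% of all genes. None of the mitosis genes fell, and the median was 0.52. Their sum was 313, 288, 346 and 542 CPM in S and 249, 221, 228 and 230 CPM in G1 neurons, a ratio of 1.61 against 3.20 in progenitors. KIF14, a kinesin of cytokinesis, had 13.1, 14.3, 7.95 and 14.8 against 6.70, 5.92, 5.69 and 5.24 CPM (0.97, SE 0.18, adjusted p 0.00166), without overlap. CENPK, a protein of the inner kinetochore, had 14.8, 9.35, 21.2 and 19.6 against 7.85, 5.92, 8.71 and 6.98 CPM (1.05, SE 0.16, adjusted p 0.00021). DIAPH3, a formin that builds actin filaments in dividing cells, had 4.18, 5.66, 18.8 and 78.4 CPM in S neurons and 2.78, 2.71, 3.11 and 3.32 CPM in G1 neurons (2.53, SE 0.37, adjusted p 0.000172). Its level in the S neurons of PP121 replicate 2 was over 10 times that of either control sample. The others that rose were BUB1B (1.82), MELK (1.36), KNL1 (1.23), KIF18A (1.19), KIF4A (1.17), CENPI (0.76), STIL (0.69) and RACGAP1 (0.57). Without control replicate 2 or without PP121 replicate 2, 6 mitosis genes rose, and DESeq2 called 3.

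**Figure D2:**
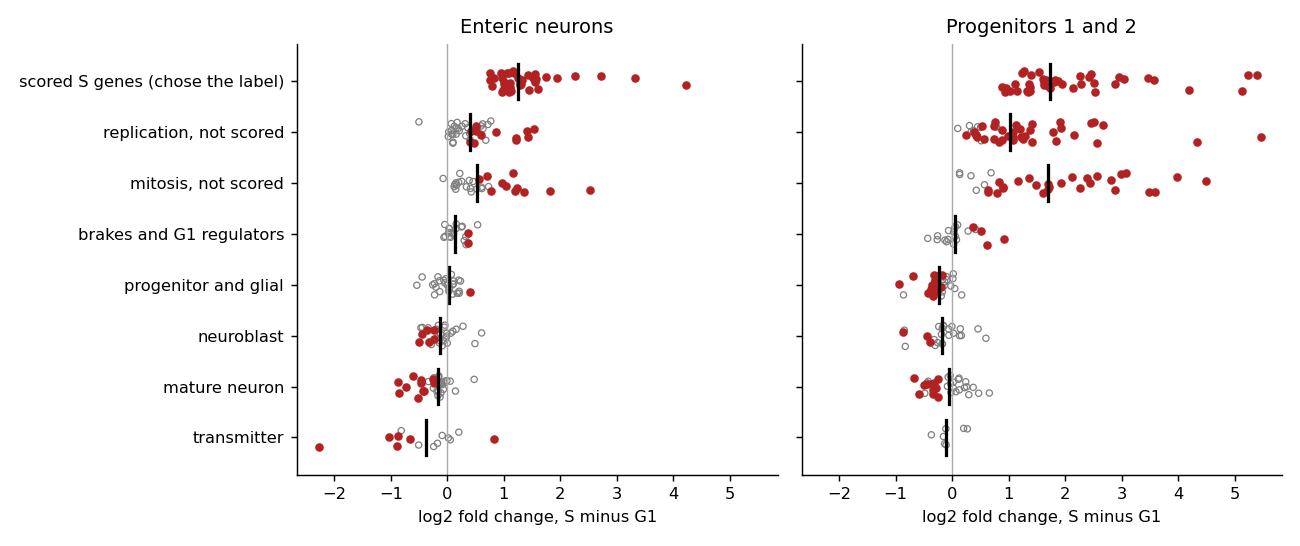
Log2 fold change of S against G1 for each tested member of 8 gene lists, in enteric neurons (left) and progenitors (right). Filled points passed an adjusted p of 0.05, open points did not, and the bar is the median of the list; the scored S genes chose the label, so their points only describe it. Of the unscored lists, replication (median 0.40) and mitosis (0.52) lay to the right in neurons and further right in progenitors (1.03 and 1.70), and mature neuron genes lay to the left.

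The promoters of 5 of these genes are shown as examples, picked because they carry letters that are textbook elements of the genes of each phase. Sequences are those of RefSeq on GRCh38.p14, from 250 bases before to 50 bases after the start of the gene, 5′ to 3′ on the strand of the gene. Capitals mark an E2F motif, searched as TTTGGCGC, TTTCCCGC, TTTGCCGC or TTTCGCGC on both strands, in MCM3 (chr6:52284693-52284992, minus strand), LIG1 (chr19:48170295-48170594, minus strand) and TOPBP1 (chr3:133661892-133662191, minus strand). In KIF14 (chr1:200620702-200621001, minus strand) and BUB1B (chr15:40160819-40161118, plus strand) they mark a CHR motif, the cell cycle homology region, searched as TTTGAA on both strands.
MCM3: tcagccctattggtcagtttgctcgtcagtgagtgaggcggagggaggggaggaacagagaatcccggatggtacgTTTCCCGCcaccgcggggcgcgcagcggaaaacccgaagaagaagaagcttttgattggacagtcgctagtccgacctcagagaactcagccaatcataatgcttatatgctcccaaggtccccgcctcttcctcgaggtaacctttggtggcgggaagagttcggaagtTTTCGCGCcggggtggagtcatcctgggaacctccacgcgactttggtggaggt
LIG1: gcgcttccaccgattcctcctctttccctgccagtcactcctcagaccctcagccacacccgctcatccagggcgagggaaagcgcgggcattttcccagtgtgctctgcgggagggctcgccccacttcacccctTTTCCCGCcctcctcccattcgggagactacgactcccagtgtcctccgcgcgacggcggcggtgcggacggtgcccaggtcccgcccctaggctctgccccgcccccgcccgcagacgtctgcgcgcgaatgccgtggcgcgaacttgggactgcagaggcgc
TOPBP1: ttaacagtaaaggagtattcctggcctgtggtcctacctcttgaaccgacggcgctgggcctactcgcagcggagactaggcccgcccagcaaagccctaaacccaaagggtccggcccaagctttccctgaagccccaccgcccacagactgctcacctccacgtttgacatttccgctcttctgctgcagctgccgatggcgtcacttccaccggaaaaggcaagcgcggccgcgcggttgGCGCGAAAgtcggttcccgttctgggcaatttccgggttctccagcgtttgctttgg
KIF14: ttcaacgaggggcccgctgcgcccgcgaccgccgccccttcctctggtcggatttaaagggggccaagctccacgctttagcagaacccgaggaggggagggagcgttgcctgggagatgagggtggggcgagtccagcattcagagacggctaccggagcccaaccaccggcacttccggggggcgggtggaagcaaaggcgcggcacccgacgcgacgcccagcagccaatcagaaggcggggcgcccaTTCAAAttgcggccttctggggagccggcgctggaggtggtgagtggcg
BUB1B: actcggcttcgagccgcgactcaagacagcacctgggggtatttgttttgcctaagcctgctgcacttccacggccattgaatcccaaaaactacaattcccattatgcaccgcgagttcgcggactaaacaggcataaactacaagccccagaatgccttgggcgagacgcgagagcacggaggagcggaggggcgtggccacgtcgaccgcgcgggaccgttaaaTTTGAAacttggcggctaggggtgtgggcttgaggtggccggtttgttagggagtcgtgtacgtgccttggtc

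An E2F motif stood in 17 of the 38 replication genes with a promoter in the table (44.7%) and in 2 of 29 mitosis genes (6.90%), against 3.31% of all 35116 promoters. A CHR motif stood in 18 of 29 mitosis genes (62.1%) and in 1 of 38 replication genes (2.63%), against 15.2% of all promoters. Among the genes that rose in S neurons, 4 of 10 replication genes (40%) held E2F letters and 4 of 9 mitosis genes (44.4%) CHR letters. These shares were no higher than those of the whole lists. Genes that rose without either motif included DIAPH3 and BRCA2. CHR letters also stood in 3 of the 7 mature neuron genes (42.9%) that fell and had a promoter, and E2F letters in 1 (14.3%). Of the 4 neuroblast genes that fell and had a promoter, none held either motif. These counts are small, and whether the letters follow the direction of change was not tested. A match is a description of letters and does not show that a factor binds.

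Much of the count of some low genes came from few nuclei. The annotation gives 70 of the 2021 S neurons (3.46%, with 4, 4, 42 and 20 nuclei) no neuron subtype and lists them as non-neuronal in the subtype column although their class is enteric neuron. These held 5.41% of the UMIs of S neurons but 187 of the 276 DIAPH3 UMIs (67.8%), 60.0% of MELK, 56.5% of BUB1B, 50.6% of KIF4A and 38.2% of BRCA2. The share was smaller for other low genes, with 20.5% for TICRR, 20.4% for STIL, 19.6% for MCM3, 19.0% for E2F1 and 11.3% for KIF14. For TOPBP1 the share was 6.53%, for DBF4 6.65% and for CENPI 6.85%, close to their share of all UMIs. With neurons that have a subtype alone, 4 of 37 replication genes rose (TOPBP1, DBF4, LIG1 and WDHD1, background 2.83%), with a median of 0.23. Of the mitosis genes, 4 of 27 rose (KIF14, DIAPH3, CENPI and CENPK), with a median of 0.17. DIAPH3 was then higher by 1.01 on the log2 scale (SE 0.30, edgeR adjusted p 0.0354), and MELK stood at −0.000817 (adjusted p 0.999). The G1 neurons included 112 nuclei (2.96%) without a subtype.

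The 33 neurons with a score above 0.2 stood apart from the rest of the S label, as a description with no test. Of them 22 (66.7%) had no subtype, and 13 (39.4%) were doublet candidates, against 103 of 2021 S neurons (5.10%) and 172 of 3789 G1 neurons (4.54%). Their part in the result as doublets was not tested further than by leaving out the candidates, which left 11 replication and 5 mitosis genes called. Summed over samples, the replication list stood at 1050 CPM in G1 neurons, 1143 at scores up to 0.05, 1274 from 0.05 to 0.1, 1745 from 0.1 to 0.2 and 4457 above 0.2. The mitosis list ran from 234 in G1 neurons through 272, 310 and 497 to 2311 CPM. Both lists thus stood higher in small steps over most of the S label and far higher at its end. S progenitors as a whole stood at 1946 and 640 CPM.

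Single genes of division were also highest above 0.2 over all samples, but did not all stand higher in steps below it. DIAPH3 had 2.97 CPM in G1 neurons, 5.14, 7.09 and 32.7 CPM in the first 3 score ranges and 412 CPM above 0.2. From 0.1 to 0.2 it had 4.45, 21.5, 21.6 and 175 CPM by sample, the last in 15 nuclei. TOP2A, the topoisomerase that untangles sister chromatids, had 5.25, 4.71, 10.4, 19.2 and 155 CPM, and MKI67, the standard marker of cycling cells, had 1.5, 1.13, 2.18, 6.73 and 39.4 CPM. In the lowest range, which holds most S neurons, TOP2A and MKI67 stood below their level in G1 neurons. TOP2A and MKI67 are scored G2M genes, so their levels describe what set the label. Above 0.2 both were at 0 in control replicate 1, which had 5 such nuclei. The median depth was 7811 UMIs in G1 neurons, 7646, 6558 and 5714 UMIs in the first 3 ranges and 11424 UMIs above 0.2. The median number of S genes with a UMI was 4, 6, 7, 9 and 20. When the top 25% of S scores of each sample was left out, 1 of 36 replication and 1 of 26 mitosis genes rose, and 1.30% of all genes were called higher.

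**Figure D3:**
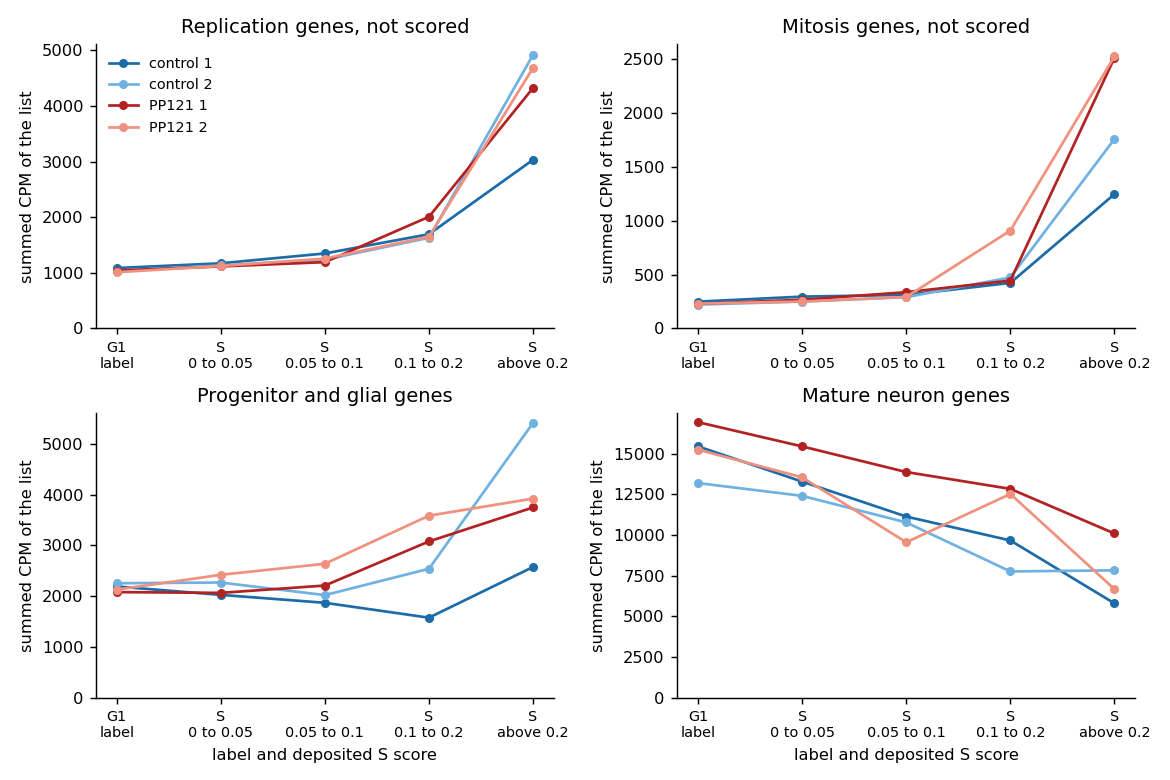
Summed CPM of 4 gene lists in enteric neurons labelled G1 and in those labelled S, split by the deposited S score, 1 line per sample. Replication and mitosis genes stood higher in small steps up to a score of 0.1 and highest above 0.2, where the 4 samples held 5, 5, 9 and 14 nuclei. Mature neuron genes stood lower above 0.2 than in G1 neurons in each sample.

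As a list, neuroblast genes did not follow the replication genes. Of 30 tested (35 listed), none rose, where 2.77% of all genes were called higher, so a count of 0 in this list is near the background. Falls numbered 6, where 5.63% of all genes were called lower, and the median of the neuroblast genes was −0.13. Their sum was 3478, 3652, 3126 and 4546 CPM in S and 3671, 3830, 3630 and 4902 CPM in G1 neurons, lower in each sample. HES6, a target of the proneural factors, had 43.5, 46.5, 17.1 and 97.5 CPM in S and 39.5, 45.0, 28.9 and 51.1 CPM in G1 neurons and did not pass (0.10, SE 0.15, edgeR adjusted p 0.769). Its values were near those of G1 neurons in the control samples, below in PP121 replicate 1 and above in PP121 replicate 2. NHLH1 (−0.18, SE 0.19), INSM1 (0.16, SE 0.15), NEUROD4 (−0.00, SE 0.23) and DLL1 (0.06, SE 0.09) did not pass either.

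The neuroblast genes that fell were those of early neurons, and DCX and ELAVL2 were also among the neuronal markers of the class check. The 9 neuroblast markers of that check, in contrast, stood at a mean of 192 CPM in S and 179 CPM in G1 neurons. DCX, a microtubule protein of migrating neurons, had 481, 504, 456 and 548 CPM in S and 528, 528, 561 and 648 CPM in G1 neurons (−0.23, SE 0.06, adjusted p 0.0167), lower in each sample. STMN2, a regulator of growing neurites, had 236, 241, 271 and 266 against 258, 292, 351 and 381 CPM (−0.36, SE 0.07, adjusted p 0.00127). EBF1 (−0.44), EBF2 (−0.51), EBF3 (−0.33) and ELAVL2 (−0.23) fell too, the EBF genes being factors of early neuronal differentiation. Among the 33 neurons above a score of 0.2, HES6 stood at 0, 70.3, 39.2 and 205 CPM, above the G1 neurons of its sample in 3 of 4, and PP121 replicate 2 held 14 of these nuclei. DCX stood at 81.3, 375, 324 and 401 CPM there, and the whole neuroblast list at 1436, 2671, 2648 and 3556 CPM, both below the G1 neurons of each sample. Without PP121 replicate 1, 3 neuroblast genes fell. Without the subtypes EN 1 and EN A, a setting added after seeing the data, 2 of 28 fell and the median was −0.06.

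Progenitor and glial genes showed 1 rise among 28 tested, that of PAX7, and no fall, with a median of 0.02. Across all genes 2.77% were called higher, so 1 rise in this list is near the background. PAX7, a neural crest factor, had 44.4, 54.1, 42.4 and 57.2 CPM in S and 26.8, 38.9, 35.6 and 48.4 CPM in G1 neurons (0.39, SE 0.10, adjusted p 0.0158). In control replicate 1, 79 of its 287 UMIs in S neurons came from 1 nucleus, and PAX7 did not pass with either control sample left out (0.29 without replicate 1 and 0.36 without replicate 2). SOX10, which marks crest and glia, had 11.6, 8.86, 15.4 and 7.95 against 12.1, 9.98, 13.5 and 7.33 CPM (−0.02, SE 0.15). Above a score of 0.2 the list stood at 2573, 5413, 3747 and 3921 CPM against 2190, 2253, 2079 and 2128 CPM in G1 neurons, higher in each sample. PAX3, a neural crest factor, stood at 244, 516, 245 and 381 against 123, 171, 165 and 187 CPM. Of the 33 neurons above 0.2, 22 had no subtype. The G1 neurons without a subtype stood high as well, at 3685 CPM for the list and 312 CPM for PAX3 over all samples. In PP121 replicates 1 and 2 their list stood at 3760 and 3620 CPM. The high level was thus not particular to neurons with a high S score.

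Mature neuron genes fell in 11 of 32, against 5.63% of all genes, and none rose, with a median of −0.16. Their sum was lower with the S label in each sample, a ratio of 0.840. RBFOX1, a splicing regulator of neurons, had 597, 416, 827 and 809 CPM in S and 898, 767, 1452 and 1548 CPM in G1 neurons (−0.85, SE 0.06, edgeR adjusted p 1.01e-07). NRG1, a growth factor for the ERBB receptors of glia, fell by 0.88 and CNTNAP2, an adhesion protein of axons, by 0.73 on the log2 scale. GAP43 (−0.52), SCN2A (−0.46), NEFM (−0.46), SV2C (−0.43), SCN3A (−0.41), CACNA1A (−0.25) and SYT1 (−0.24) fell too, genes of synaptic proteins, axon proteins and channels. With neurons that have a subtype alone, 11 mature neuron and 6 neuroblast genes fell, with 5.65% of all genes called lower.

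Transmitter genes fell in 5 of 14 tested, with 1 rise and a median of −0.38, where 5.63% of all genes were called lower. Without control replicate 2, 3 fell, and without PP121 replicate 2, 7 fell. SLC5A7, the choline transporter, had 3.71, 2.21, 2.41 and 2.12 CPM in S and 4.79, 35.2, 8.27 and 18.0 CPM in G1 neurons (−2.28, SE 0.35, adjusted p 0.000234). These levels rest on few nuclei, with 24, 9, 10 and 4 UMIs in S neurons, and 56 of the 208 UMIs of G1 neurons in control replicate 2 came from 1 of 33 nuclei. CHAT, the enzyme that makes acetylcholine, had 18.1, 10.3, 13.0 and 2.65 against 20.9, 23.3, 19.0 and 6.81 CPM (−0.66, SE 0.16, adjusted p 0.012). NOS1, the synthase of nitric oxide, had 3.56, 2.71, 3.13 and 4.77 against 4.79, 7.61, 7.82 and 8.55 CPM (−1.03, SE 0.23, adjusted p 0.00801). Its counts rest on few nuclei too, with 23, 11, 13 and 9 UMIs in S neurons. In G1 neurons, 5 nuclei held 48.0, 62.2, 67.0 and 91.8% of its UMIs, and in PP121 replicate 2 only 9 nuclei held any. SLC17A6, the glutamate transporter of vesicles, fell by 0.90 and TAC1, the precursor of substance P, by 0.88 on the log2 scale. The rise was that of SLC6A4, the serotonin transporter, with 8.20, 8.61, 7.95 and 17.5 against 4.60, 5.24, 5.07 and 6.81 CPM (0.83, SE 0.19, adjusted p 0.00714).

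**Figure D4:**
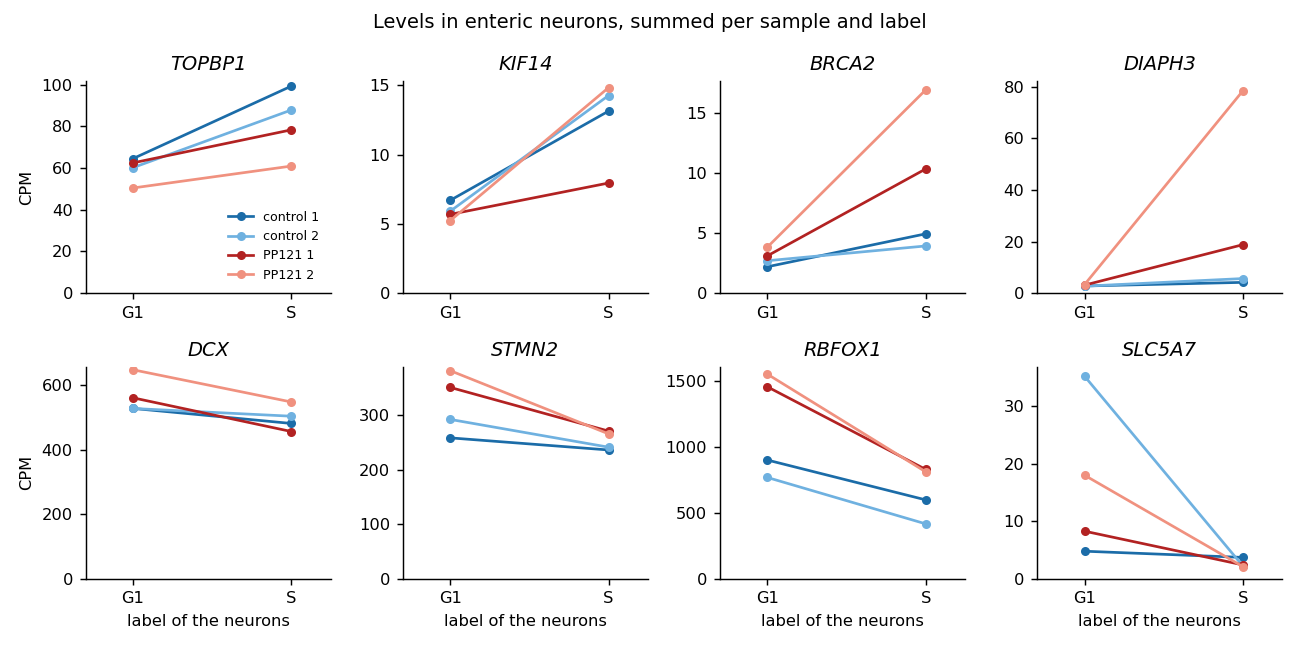
CPM of 8 genes in the summed G1 and S neurons of each sample, 1 line per sample. TOPBP1 and KIF14 were higher with the S label in all 4 samples, BRCA2 and DIAPH3 rose most in PP121 replicate 2, and DCX, STMN2, RBFOX1 and SLC5A7 were lower in all 4.

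Of the genes that hold cells in G1 or release them, 2 of 20 tested rose, where 2.77% of all genes were called higher. None was called without control replicate 1, control replicate 2 or PP121 replicate 1, with DESeq2 or after thinning. BTG2, an antiproliferative gene of neuroblasts, had 48.6, 46.0, 39.5 and 48.8 CPM in S and 38.5, 36.7, 30.2 and 29.7 CPM in G1 neurons (0.37, SE 0.09, edgeR adjusted p 0.0171), without overlap. CCND2, a D cyclin, changed by 0.37 (SE 0.11, adjusted p 0.0354). CDKN1C, an inhibitor of cyclin-dependent kinases that newborn neurons express, had 51.7, 69.6, 44.6 and 67.8 against 43.7, 56.1, 46.9 and 74.7 CPM (0.06, SE 0.09, adjusted p 0.788). RB1, which restrains the E2F factors, stood at 0.03 (SE 0.07). Of 24 DNA repair genes outside the scored lists, WRN, a helicase, rose (0.28, SE 0.06, adjusted p 0.00504), and the median was 0.02. Mesenchymal and epithelial markers had no member called among 11 and 2 tested.

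Among genes outside the scored lists that were called, with at least 5 CPM on average and the same direction in all 4 samples, the 10 with the largest rise were DIAPH3, BRCA2, CCDC190 (1.40), ZNF367 (1.31), SERPINB9 (1.27), KNL1, CEP152 (1.16), PCLAF (1.13), ARHGAP11B (1.12) and LINC01515 (1.05). DIAPH3, BRCA2, KNL1, CEP152, a centriole protein, and PCLAF, a partner of PCNA, are known from replication or division. ARHGAP11B is a partial copy of ARHGAP11A, and reads of the pair may not be told apart. SERPINB9, an inhibitor of granzyme B, had 111, 88.8, 55.7 and 109 CPM in S and 38.0, 32.0, 30.5 and 42.9 CPM in G1 neurons (SE 0.10, adjusted p 1.79e-07). Its counts in S neurons rest on few nuclei. In control replicate 1, 142 of its 719 UMIs came from 1 nucleus. In PP121 replicate 2, 64 of its 205 UMIs came from 1 of 24 nuclei and 78.5% from 5. In control replicate 1, 69 of the 106 LINC01515 UMIs of S neurons came from 1 nucleus. By the same limits the 10 largest falls were those of SLC5A7, AC004594.1 (−1.58), CADPS2 (−1.54), CNTNAP4 (−1.42), DPP10-AS3 (−1.36), THSD7B (−1.31), GALNTL6 (−1.30), FLRT2 (−1.29), SKOR2 (−1.27) and PLPP4 (−1.24). CADPS2 acts in the release of dense core vesicles and CNTNAP4 at synapses. In G1 neurons of PP121 replicate 2, 64 of 135 CADPS2 UMIs came from 1 nucleus. DPP10-AS3 is antisense to a neuronal gene, and its reads may not be told apart from that gene.

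The same label was then read in progenitors. There 36 of 44 replication genes rose (median 1.03, background 4.23%), and 27 of 33 mitosis genes (median 1.70). Progenitor and glial genes fell in 13, neuroblast genes in 3 and mature neuron genes in 11, with 5.94% of all genes called lower. The difference between the classes was tested as the interaction of phase with class over 16 sums. It was called in 5 of 45 replication genes, 7 of 34 mitosis genes and 0.514% of all genes toward a smaller change in neurons, and in none of either list toward a larger one, where 0.134% of all genes were called. The total of 121 genes fell to 77 without control replicate 1, 21 without control replicate 2 and 62 without PP121 replicate 1. The 5 were FANCD2 (−1.84), CHAF1A (−1.87), POLA2 (−1.34), DNA2 (−1.05) and MCM8 (−1.05). The 7 were POLQ (−2.74), MELK (−2.65), PLK4 (−2.02), KIF15 (−2.00), CIT (−1.96), CENPK (−1.42) and RACGAP1 (−0.95). POLQ, the polymerase of a backup break repair, had 8.82, 7.63, 14.9 and 29.2 CPM in S and 9.29, 7.95, 10.7 and 11.5 CPM in G1 neurons. In progenitors it had 22.1, 23.8, 26.8 and 50.6 against 3.17, 1.56, 3.88 and 4.80 CPM. POLQ thus stood higher with the S label in progenitors of every sample, and in neurons of the control samples it was near its G1 level.

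The label itself depended on how it was computed. Scored again within each treatment with the same method, 83.5% of the 2021 deposited S neurons were S, and with another draw of control genes 87.9%. With both treatments scored together 75.6% were S, with the odd-numbered S genes alone 65.9% and with the even-numbered alone 73.7%. After thinning each nucleus to 2000 UMIs, 53.5% of the S neurons were S, and 15.5% of the G1 neurons became S. At that equal depth the S neurons held a mean of 3.20, 3.11, 3.41 and 3.57 S gene UMIs, the G1 neurons 1.53, 1.40, 1.51 and 1.40, and the S progenitors 4.13, 4.19, 4.54 and 5.58.

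S neurons were somewhat shallower than G1 neurons, which moves with the results above. The median was 7199, 7642.5, 6855 and 7468 UMIs against 7522, 8366.5, 7596.5 and 8511.5 UMIs, a mean difference of −708 UMIs (SD 296, n = 4), lower in all 4 samples (exact two-sided sign-flip permutation p = 0.13, the smallest that 4 pairs allow, Benjamini-Hochberg adjusted 0.167 over 4 measures). The median number of genes was lower by 135 (SD 19.3), and the percent of ribosomal counts was higher by 0.0808 points (0.910, 0.725, 0.753 and 0.719% against 0.789, 0.661, 0.685 and 0.650%), each with the same p. Mitochondrial counts had a median of 0% in S neurons of every sample. With G1 neurons matched to the depth of the S neurons, 6 mitosis genes rose.

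PP121 samples held fewer neurons labelled S. The share was 35.2% and 37.4% of neurons in the control and 25.6% and 22.8% in the PP121 samples, a difference of −12.1 points between the means of 36.3% and 24.2% that was −9.68 points between the samples dated day 42 and −14.6 points between those dated day 38. The groups did not overlap, and the exact two-sided permutation p was 0.33, the smallest that 2 against 2 samples can give. Scored again within each treatment the difference was −17.6 points. Scored with both treatments together the shares were 25.6%, 25.4%, 23.6% and 20.2%, a difference of −3.54 points. Thinned to 2000 UMIs and scored within each treatment, the difference was −2.95 points. Most of the deposited difference was therefore absent in either setting, that is, in 1 run over all samples or at equal depth in separate runs. Its cause was not tested.

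**Figure D5:**
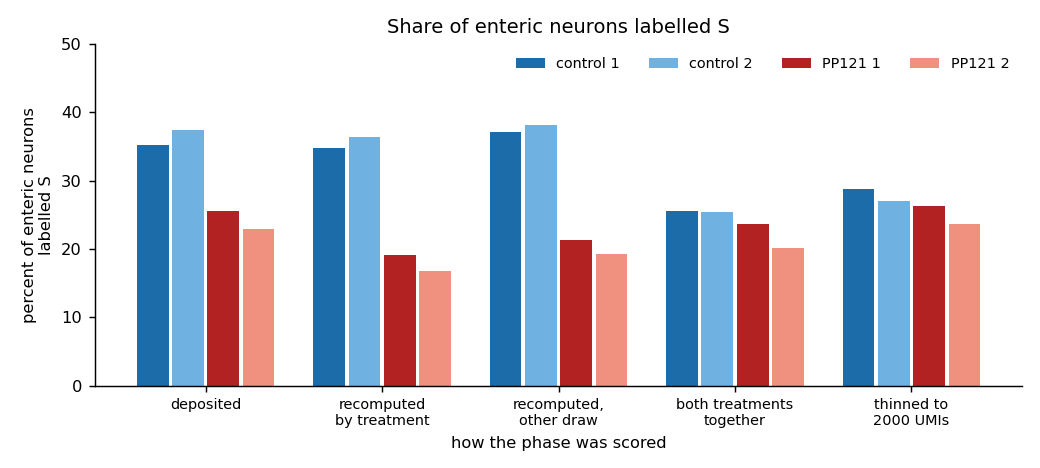
Percent of enteric neurons labelled S in each sample, by the way the phase was scored. The deposited labels and the labels recomputed within each treatment at full depth put both PP121 samples far below both control samples. Scoring the treatments together, or within each treatment at 2000 UMIs per nucleus, brought the samples to between 20.2% and 28.7%.

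Whether the change from G1 to S differed with PP121 was tested as an interaction in the same 8 sums. It was called in 9 of 19002 genes (0.0474%), among them DIAPH3, which rose more with PP121 by 2.73 on the log2 scale, and in none with DESeq2 (1.42.0) or with the replicate as a further block. No other member of the replication or mitosis lists was among them.

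The share labelled S was also compared between neuron types, and no difference between transmitter identities passed adjustment. Shares were taken over neurons with a subtype, whose deposited transmitter identities may be more than 1 per nucleus. Each identity was set against all such neurons without it, including those with no identity. Of cholinergic neurons, 30.6%, 31.7%, 22.5% and 17.2% were labelled S, against 37.7%, 39.1%, 26.7% and 22.7% of the others. The difference was −6.05 points (SD 1.48, n = 4), lower in 4 of 4 samples (exact two-sided sign-flip p = 0.13, the smallest possible, adjusted 0.25 over 6 identities). Nitrergic neurons differed by −5.72 points and GABAergic neurons by −4.24 points, both lower in 4 of 4 samples with the same p. Catecholaminergic (−2.26), serotonergic (−1.50) and glutamatergic neurons (0.73) went different ways in different samples. S neurons were shallower in all 4 samples, and the part of depth in these shares was not tested. Subtype names differ between the control and PP121 annotations. In the control samples the subtype EN 1 had the highest shares, with 45.0% (95% Clopper-Pearson interval 40.7 to 49.3) and 46.7% (41.7 to 51.9) labelled S, intervals that cover counting error only.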

How the data were processed

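Nuclei of 4 samples were profiled by droplet single-nucleus RNA sequencing. The authors deposited a count matrix per sample, whose values are UMIs per nucleus and gene symbol. The study's methods name kallisto and bustools for counting, and the submitters' processing notes name Cell Ranger, GRCh38 and Seurat 4.0.4. Whether strand was used is not given in the sources used here. The deposited annotation gave the class, subtype, transmitter identity, phase and S score of each nucleus, and the deposited percent of mitochondrial and ribosomal counts. A further column of sample names gives the controls other names than the labels do. Groups were taken from the labels. The annotated nuclei held 23348045 to 34123759 UMIs per sample.

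Counts were summed per sample and phase, and S was compared with G1 by edgeR 4.0.16 (quasi-likelihood test, two-sided, TMM scaling, low counts removed by filterByExpr, Benjamini-Hochberg over all genes) in R 4.3.3, with the sample as a block, since S and G1 sums come from the same samples. CPM are counts scaled to the total of a sum. The script was tested on simulated data. Genes of the 2 scored lists stayed in the fit and were left out of counts of genes called, because they chose the labels. Phase was recomputed with Seurat 5.3.0. Doublet candidates were the nuclei with the highest scores of the doublet caller in scanpy 1.11.5, taken at its expected rate. Replicate numbers are shared by samples dated to the same day, and the deviations of neurons from group means correlated at 0.519 between such samples across 15950 genes. Shares were compared over samples with exact permutation tests.

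Named genes were the 10 that rose most and the 10 that fell most, given an adjusted p below 0.05, at least 5 CPM on average and the same direction in all 4 samples, with the members of the lists that were called, the 3 listed members of highest level and, for each interaction, the 3 genes with the smallest p. Other members were named after their values were seen (proneural factors, SOX10, CDKN1C, RB1 and single S genes). The members and lists were chosen with earlier results of these data known. Alternatives were DESeq2 1.42.0, other filters, no block, each sample left out, thinning to 2000 UMIs, depth matching, removal of doublet candidates, recomputed phases and a stricter S label. Scoring both treatments together, another draw, the subtype as a block, leaving out EN 1 and EN A, leaving out the top 25% of scores, neurons with a subtype and a label without control genes were added after seeing the data. Nuclei without an annotated class were not used, and some genes that the rule covers are not reported here.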

Additional observations from a re-analysis of the deposited data

Results flagged for a closer look

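Neurons labelled G2M were not part of the comparison, and their mitosis genes outside the scored lists stood above the G1 neurons of the same sample, which drew attention as a signal outside the main measurement. The list summed to 688 and 1424 CPM in control replicates 1 and 2 and to 1257 and 1085 CPM in PP121 replicates 1 and 2, against 249, 221, 228 and 230 CPM in G1 and 313, 288, 346 and 542 CPM in S neurons.

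A further 3 genes stood out because the change from G1 to S differed between neurons and progenitors in edgeR's interaction test. GRM8, a glutamate receptor, had 13.8, 9.35, 28.2 and 44.0 CPM in S and 28.6, 26.5, 27.9 and 58.8 CPM in G1 neurons, and 13.3, 19.6, 25.3 and 60.5 against 4.58, 7.04, 6.34 and 8.19 CPM in progenitors, an interaction of −2.77 (SE 0.29, edgeR adjusted p 2.9e-05). POLQ differed by −2.74 (SE 0.30, adjusted p 2.9e-05). GLRA2, a glycine receptor subunit, had 50.9, 30.8, 54.7 and 56.2 against 71.4, 63.9, 69.2 and 62.8 CPM in neurons and 26.3, 28.0, 23.9 and 47.6 against 14.8, 8.86, 16.6 and 11 CPM in progenitors (−1.74, SE 0.23, adjusted p 0.000633).

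Another 3 stood out because the change from G1 to S in neurons differed with PP121 in the same kind of test. AP003464.1 had 58.2, 65.5, 18.6 and 28.1 CPM in S and 34.7, 49.9, 30.9 and 60.2 CPM in G1 neurons (PP121 minus control −1.51, SE 0.20, edgeR adjusted p 0.000663). MT-CO3, a mitochondrial transcript, had 35.1, 30.3, 14.9 and 57.2 against 68.9, 87.9, 16.5 and 36.7 CPM (1.49, SE 0.23, adjusted p 0.00549). NFIB, a factor of glial differentiation, had 19.6, 18.2, 20.5 and 38.7 against 27.3, 25.2, 11.9 and 17.1 CPM (1.41, SE 0.23, adjusted p 0.00893). None of these 3 passed with DESeq2 (adjusted p 0.0552, 0.209 and 1.00) or with the replicate as a further block.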

How the results depend on the processing

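The total of 1498 genes called became 704 with DESeq2, 922 with nuclei thinned to 2000 UMIs, 967 with the strict S label, 547 without EN 1 and EN A, 907 without the top 25% of S scores and 529 without control genes. With each sample left out it was 610 to 1987. The 12 replication genes became 3 with DESeq2, 21 with no filter, 3 thinned, 4 with the subtype as a block, 6 without EN 1 and EN A, 1 without the top 25%, 4 in neurons with a subtype, 2 without control genes and 7 to 11 with each sample left out. The 11 mitosis genes became, in the same settings, 3 with DESeq2, 1 thinned, 2 with the subtype as a block, 5 without EN 1 and EN A, 1 without the top 25%, 4 with a subtype, 0 without control genes (3 with an unadjusted p under 0.05) and 6 to 8 with a sample left out, and also 6 with depth-matched G1 neurons and 5 without doublet candidates. The 6 neuroblast genes that fell became 2 without EN 1 and EN A and 3 to 7 with a sample left out, and the 11 mature neuron genes 9 to 14. The 1 progenitor and glial gene became 0 with DESeq2, without doublet candidates and with the subtype as a block, 2 with the strict S label and with joint scoring, and 0 to 2 with a sample left out. The 7 held-out S genes became 3 with the even-numbered scores and 4 to 7 with a sample left out. The 121 genes of the class interaction became 53 thinned, 52 with phase recomputed and 21 to 96 with a sample left out.

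Without the replicate block, that is without the sample as a block, which pairs the S and G1 sums, 0 genes passed in edgeR's test (1267 with an unadjusted p under 0.05), and 0 replication, mitosis, neuroblast, progenitor and mature neuron genes. The 9 genes of the PP121 interaction became 0 with DESeq2 and 0 with the replicate block, and the share difference of −12.1 points had an exact p of 0.5 within the 2 pairs. Glutamatergic shares turned to −0.613 points without control replicate 1 and −0.311 without control replicate 2, and were −0.613 to 2.01 with any sample left out. MELK turned to −0.000817 in neurons with a subtype and BRCA2 to −0.00321 without the top 25% of scores. The cause of these changes was not tested, beyond the smaller number of nuclei or UMIs that thinning and exclusion leave.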

Other observations

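Over all samples, the 747 neurons labelled G2M held 87.5 CPM of KIF14, 149 CPM of TOP2A and 31.1 CPM of MKI67, against 12.3, 10.3 and 2.60 CPM in S neurons and 5.97, 5.25 and 1.5 CPM in G1 neurons. TOP2A and MKI67 are scored G2M genes that helped to choose these nuclei, so their levels only describe them, and KIF14 is not scored. The neuroblast list of the G2M neurons stood at 3547 CPM, beside 3554 CPM in S and 3897 CPM in G1 neurons, and the mature neuron list at 11482, 12834 and 15516 CPM in the same order. HES6 stood at 55.2, 43.8 and 38.9 CPM. Of the G2M neurons 54 had no subtype. These values are sums over nuclei of all samples and were not tested.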
